A study of Mus musculus with 12 samples.

Results

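Collagens, laminins and further proteins of basement membranes and the interstitial matrix were followed in mouse kidneys, over 62 genes measured by 120 probe sets, out of 18193 singly named genes on 34945 probe sets. They were taken by symbol from probe sets whose platform annotation names exactly 1 gene: 42 collagen chains, 10 laminin chains, and Fn1, Sparc, Mgp, Postn, Lum, Eln, Lox, Nid1, Nid2 and Hspg2. Fbn1 was not analysed here. A probe set entered the tests where its signal was above the 40th percentile of its array on at least 3 of the 12 arrays, which left 53 of the 62 genes (33 collagens, all 10 laminins and all 10 others) among 14322 genes.

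The arrays held RNA of whole kidneys from male mice bought at 8 weeks of age, 3 kidneys in each of 4 groups. Wild-type mice were C57BL/10 and TLR4 null mice were C57BL/10ScNJ, a substrain that lacks Tlr4, so loss of the receptor cannot be told apart from other differences between the substrains. Every mouse, controls included, had lost its right kidney. In the ischemic groups a clip closed the vessels of the left kidney for 23 min and the kidney was taken after 4 h of reperfusion, whereas in sham mice the clip lay under the pedicle without closing it.

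Collagens are trimers of alpha chains. Fibrillar collagens I, III and V form the cables of the interstitium, and collagen IV forms the sheet-like network of basement membranes, which laminins, nidogens and the proteoglycan perlecan complete. In the kidney the basement membrane under podocytes and much of that around tubules carries the α3, α4 and α5 chains of collagen IV. These are products of Col4a3, Col4a4 and Col4a5. The basement membrane under podocytes also carries a laminin made of the Lama5, Lamb2 and Lamc1 chains. The α1 and α2 chains of collagen IV are found in nearly every basement membrane. Fibroblasts, pericytes, mesangial cells and vessel walls are the usual makers of fibrillar collagen, and fat around the kidney also makes matrix.

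The deposited values were linear MAS5 signals, with the same trimmed mean of 250 on each of the 12 arrays and medians of 61.2 to 77.4. Log2 signals of 2 arrays correlated at 0.963 to 0.979 within a group and at 0.933 to 0.976 between groups. The Tlr4 probe set with the clearest contrast read 65.6 to 120.4 on the 6 wild-type arrays and 0.901 to 3.38 on the 6 TLR4 null arrays. Another read 72.9 to 134.8 and 6.33 to 60.4 in the same order, and the other 2 were dim and overlapped. Markers of renal tubules were bright on every array, with Slc34a1 of the proximal tubule at 10131 to 14388, Umod of the thick ascending limb at 16365 to 21894 and Aqp2 of the collecting duct at 1163 to 2221. The actin control, read near its 3' end and divided by its reading near the 5' end, was at 1.68 to 1.85 on sham arrays and 1.73 to 2.01 on ischemic arrays. Its part in the results was not tested.

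A part of the matrix genes was lower in TLR4 null than in wild-type kidneys, after sham surgery and after ischemia. Collagens I, III, IV and VI and Sparc led this part. The group means compared share no arrays, but the variance used in each test was estimated from all 12 arrays. So the calls of the sham and ischemic comparisons are not independent. After sham surgery 6 of the 53 tested genes were lower in TLR4 null kidneys by limma's moderated test on log2(signal + 15) with Benjamini-Hochberg adjustment over all 14322 genes, at an adjusted p under 0.05, and 0 were higher, where 0.223% of all genes were called lower and 0.0908% higher (0.314% in either direction). After ischemia 14 were lower and 0 higher, where 0.517% of all genes were called lower and 0.14% higher (0.656% in either direction). Col1a1, Col3a1, Col4a1, Col4a2, Col6a3 and Sparc were called in both. Over all 14322 genes, 19 were called in both. The median difference was -0.34 on the log2 scale over the 53 matrix genes against -0.01 over all genes in sham kidneys, and -0.31 against 0.01 in ischemic kidneys. The mean was lower in TLR4 null kidneys after both surgeries for 34 of the 53 (64.2%), against 28.5% of all genes. The 3 TLR4 null kidneys lay below the 3 wild-type kidneys for 23 of the 53 after sham surgery and 22 after ischemia, as 8.63% and 7.63% of all genes did, and above them for 1 in each, as 8.11% and 7.05% of all genes did. For 12 of the 53 all 6 TLR4 null arrays lay below all 6 wild-type arrays, which 0.587% of all genes did: Col1a1, Col3a1, Col4a2, Col4a5, Col5a1, Col5a2, Col6a2, Col6a3, Fn1, Nid1, Nid2 and Sparc. Col25a1 alone of the 53 lay above on all 6, where 0.216% of all genes did. In whole kidneys, fewer cells of a type and less RNA per cell cannot be told apart.

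**Figure D1:**
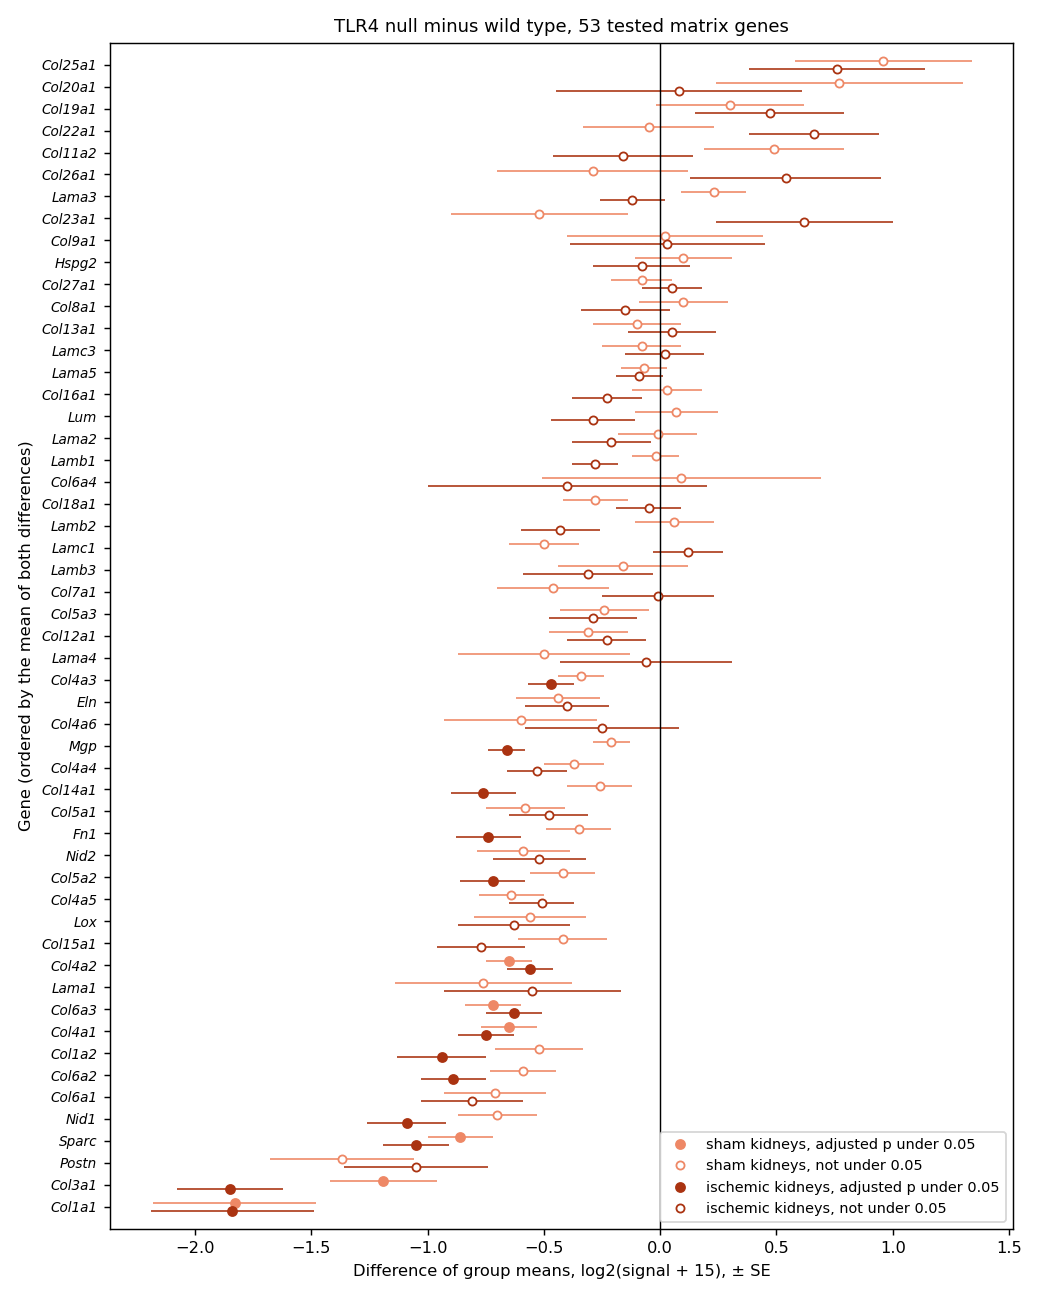
Differences of TLR4 null minus wild-type group means on the log2(signal + 15) scale (horizontal axis, bars ± SE) for the 53 tested matrix genes (vertical axis), in sham (light) and ischemic (dark) kidneys, 3 per group. Filled points had an adjusted p under 0.05: 6 in sham and 14 in ischemic kidneys, all left of 0.

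The number of calls changed when single arrays were left out, which also left fewer kidneys in a group. The sham count of 6 fell to 0 without wild-type sham array 1, wild-type sham array 2, TLR4 null sham array 1 or TLR4 null sham array 3, to 1 without TLR4 null sham array 2, and to 0 where limma's prior variance was fitted without a trend on signal. The ischemic count of 14 fell to 3 without wild-type ischemic array 3, to 6 without TLR4 null ischemic array 2, to 8 without wild-type ischemic array 1 or TLR4 null sham array 3, to 9 without wild-type ischemic array 2 or TLR4 null ischemic array 1, and to 4 without the trend. Of the 14, Col3a1, Mgp and Sparc kept the call without each of the 12 arrays. By gene, the ischemic calls held in 12 (Col3a1, Mgp, Sparc), 11 (Col4a1, Col6a2, Nid1), 9 (Col14a1, Col4a2), 8 (Col1a1), 6 (Col5a2, Col6a3, Fn1), 4 (Col1a2) and 2 (Col4a3) of 12 such fits, and the sham calls in 8 (Col4a2), 7 (Col4a1, Sparc) and 6 (Col1a1, Col3a1, Col6a3) of 12. Fits without an array of the other surgery left the group means compared as they were, so they test a call less. The sham call of Col6a3 was lost without each sham array. Those of Col1a1, Col3a1, Col4a1 and Sparc were lost without each sham array except wild-type sham array 3. Without each ischemic array the ischemic call of Col4a3 was lost. Those of Col5a2, Col6a3 and Fn1 were lost without each except TLR4 null ischemic array 3. None of the leave-one-out fits reversed a difference that had been called.

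After ischemia 9 of the 53 matrix genes were called in wild type (4 higher, 5 lower), where 19.6% of all genes were called (9.17% higher, 10.5% lower), and 11 in TLR4 null (3 higher, 8 lower), where 21.6% were called (9.86% higher, 11.7% lower). These shares of 17.0% and 20.8% are near those of all genes. Over the mean of both genotypes 14 were called (6 higher, 8 lower), where 33.1% of all genes were (13.7% higher, 19.4% lower). For 4 of the 53 all 6 ischemic arrays lay below all 6 sham arrays, and for 2 above, where 8.98% and 8.06% of all genes did. Without wild-type sham array 1 the wild-type count was 5. Col13a1, Col18a1, Col4a3, Col4a4, Lama3, Lama5, Lamc1 and Mgp were called in both genotypes, as were 1935 of all genes. In leave-one-out fits the wild-type calls held in 12 (Col13a1, Col4a3, Col4a4, Lama5), 11 (Mgp), 8 (Col18a1, Col4a1, Lama3) and 6 (Lamc1) of 12 fits, and the TLR4 null calls in 12 (Col18a1, Col4a3, Col4a4, Lama3, Lama5, Lamc1, Mgp) and 8 (Col13a1, Col14a1, Col1a2, Lamb2) of 12. Fits without an array of the other genotype left the group means compared as they were, so they test these calls less. Calls over the mean of both genotypes held in 12 (Col13a1, Col18a1, Col4a1, Col4a3, Col4a4, Lama3, Lama5, Lamc1, Lox, Mgp), 8 (Lamb3), 5 (Col12a1), 4 (Col1a2) and 3 (Col4a5) of 12.

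Fat, fibroblast, endothelial and leukocyte marker lists had lower mean log2 signals in TLR4 null kidneys after both surgeries. All 4 measured of 7 fat markers had lower means in TLR4 null kidneys after both surgeries. Their summed signal ran from 5276 to 8989 in wild-type sham, 4351 to 12754 in wild-type ischemic, 2898 to 5537 in TLR4 null sham and 2377 to 9023 in TLR4 null ischemic kidneys, so the genotypes overlapped after each surgery. The adipocyte hormone Adipoq spanned 34.8 to 1620 over the 12 arrays. With the mean log2 fat signal as a covariate, 3 matrix genes were called lower in sham (Col4a2, Sparc and Postn) and 3 in ischemic kidneys. Each of the 6 sham and 14 ischemic differences was still negative in that fit, at 83.2% to 103% and 75.5% to 113% of its size without the covariate. Sparc was at -0.93 (adjusted p = 0.0383), Col3a1 at -1.56 (adjusted p = 0.0373) and Mgp at -0.61 (adjusted p = 0.0373) in ischemic kidneys with it. Postn, not called without the covariate, moved from -1.37 ± 0.31 to -0.96 in sham (adjusted p = 0.0408) and from -1.05 ± 0.31 to -0.43 in ischemic kidneys. Other genes not called between genotypes moved either way in ischemic kidneys. Lox went from -0.63 to -0.20 and Lum from -0.29 to -0.05, whereas Nid2 went from -0.52 to -0.61 and Col4a4 from -0.53 to -0.61.

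Of 8 fibroblast markers, all measured and none at 0, 7 had lower means in TLR4 null kidneys after each surgery, with a summed signal of 3807 to 4460 in wild-type sham, 3168 to 4202 in wild-type ischemic, 3170 to 3454 in TLR4 null sham and 1944 to 2983 in TLR4 null ischemic kidneys. The sums did not overlap between genotypes after either surgery. Those of the endothelial and leukocyte markers, given below, did not overlap either. Fbln5, an elastic fibre protein of fibroblasts, was the fibroblast marker called between genotypes, in ischemic kidneys (-0.85 ± 0.17, adjusted p = 0.0378), and Ehd3 the endothelial one (-0.60 ± 0.12, adjusted p = 0.0407). The 8 endothelial markers summed to 5167 to 6374 and 3644 to 4791 in wild-type sham and ischemic kidneys, and to 4373 to 4745 and 2858 to 3214 in the TLR4 null groups, and the 5 measured leukocyte markers to 703 to 892, 1196 to 1625, 492 to 557 and 734 to 882 in the same order. The 5 markers of pericytes and mesangium had mean log2 signals of 8.56 and 8.48 in wild-type sham and ischemic kidneys and of 8.45 and 8.27 in TLR4 null. Of the 5, Itga8 was the 1 called between genotypes, lower in TLR4 null ischemic kidneys (-0.78). The 4 measured of 5 smooth muscle markers had 8.71 and 9.09 in wild type and 8.91 and 8.93 in TLR4 null. Of the 4, 3 had a higher mean in TLR4 null sham than in wild-type sham kidneys. The largest of these sham differences, 0.93, was that of Des, which read 31.3 on wild-type sham array 1. It read 397.4 and 372.1 in the other wild-type sham kidneys and 347 to 374.7 in TLR4 null sham kidneys. The 6 proximal tubule markers went the other way in sham kidneys. They summed to 28993 to 30924 in wild-type sham and 31733 to 34645 in TLR4 null sham kidneys. After ischemia they overlapped, at 24888 to 31069 and 26142 to 28131. The part of these cells in the matrix differences was not tested beyond the fat covariate.

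**Figure D2:**
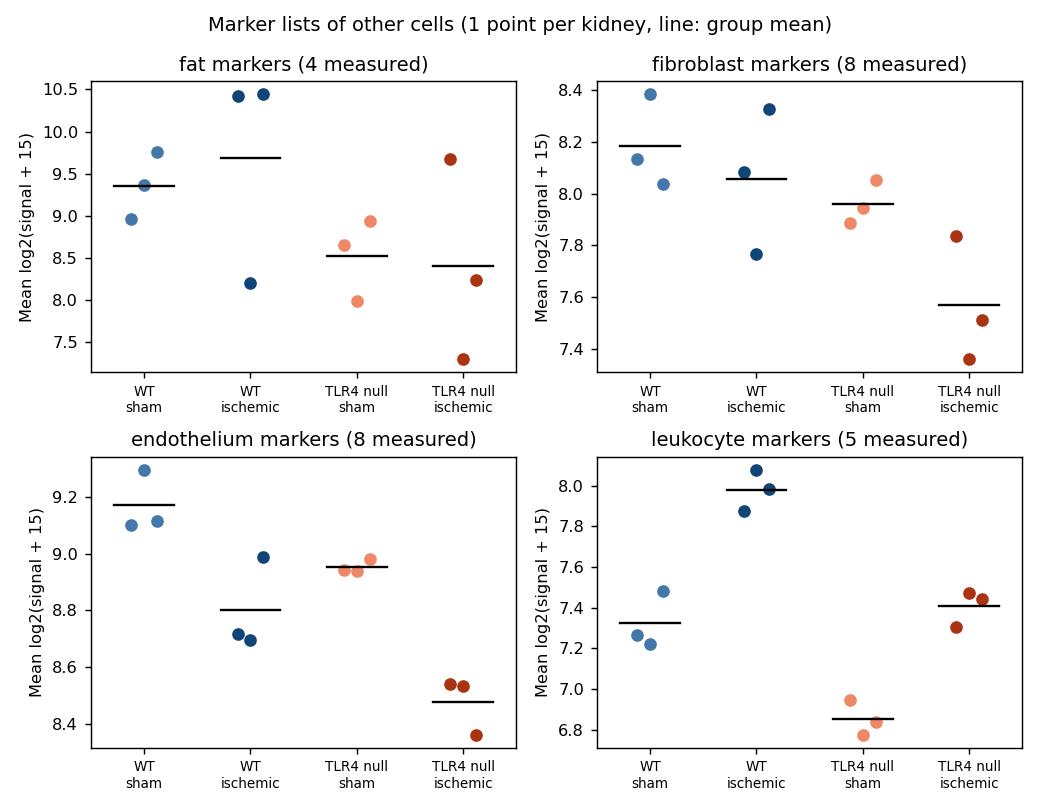
Mean log2(signal + 15) of the measured markers (vertical axis) of fat, fibroblasts, endothelium and leukocytes in each of the 4 groups (horizontal axis), 1 point per kidney with a line at the group mean. Fat means ran from 7.30 to 10.44 and overlapped between genotypes, and the 3 TLR4 null ischemic kidneys had the lowest endothelial means, 8.36 to 8.54.

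Because 14 genes stood lower together in ischemic TLR4 null kidneys, the bases upstream of their RefSeq starts (GRCm38.p6) were read. Windows were at hand for 42 of the 62 genes and for 8 of the 14. The 250 bases before each start were searched on both strands for 3 promoter motifs. CCAAT was in 4 of the 9 windows of those 8 genes, in 15 of 47 windows of the matrix genes and in 33.8% of all 32851 windows. GGGCGG was in 5 of the 9, in 25 of the 47 and in 32.7% of all. TATAAA was in 1 of the 9, that of Col3a1, in 6 of the 47 and in 12.4% of all. The upstream bases of Sparc (chr11:55420081-55420330, minus strand), Col1a2 (chr6:4505368-4505617, plus strand) and Nid1 (chr13:13437352-13437601, plus strand) are shown 5' to 3', with matches in capitals, to set a gene with none of these letters beside genes with 2 of the motifs.
Sparc: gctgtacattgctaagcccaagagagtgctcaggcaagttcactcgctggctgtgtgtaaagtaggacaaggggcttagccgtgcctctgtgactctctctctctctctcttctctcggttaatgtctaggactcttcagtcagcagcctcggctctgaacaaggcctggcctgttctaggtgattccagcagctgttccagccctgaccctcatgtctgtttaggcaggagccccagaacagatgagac
Col1a2: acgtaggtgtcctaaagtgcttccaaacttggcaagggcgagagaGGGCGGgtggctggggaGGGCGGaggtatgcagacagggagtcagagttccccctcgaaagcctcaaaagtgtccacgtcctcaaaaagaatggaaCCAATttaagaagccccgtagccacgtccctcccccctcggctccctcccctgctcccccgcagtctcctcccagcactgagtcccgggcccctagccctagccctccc
Nid1: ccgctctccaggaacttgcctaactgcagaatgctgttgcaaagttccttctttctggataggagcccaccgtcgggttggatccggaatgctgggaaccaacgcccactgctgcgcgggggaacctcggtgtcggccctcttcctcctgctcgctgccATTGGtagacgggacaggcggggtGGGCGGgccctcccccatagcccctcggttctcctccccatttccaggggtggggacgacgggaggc
In Col1a2 the GGGCGG matches began 205 and 188 bases before the start and CCAAT 109 bases before it. In Nid1 a match to the reverse complement of CCAAT began 91 bases before the start and GGGCGG 67 bases before it. The 2 matched motifs did not overlap in either gene. A match is a description of letters, and binding was not measured.

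Col4a1 and Col4a2 lie head to head, with RefSeq starts 21 bases apart on opposite strands. The Col4a1 start (chr8:11312826, minus strand) lies downstream of the Col4a2 start (chr8:11312805, plus strand), so the annotated genes overlap at their starts. The bases upstream of each start thus lie downstream of the start of the other gene. These upstream stretches lie on opposite sides and do not overlap. The 30 bases around a CCAAT match, or around its reverse complement, are shown in the direction of each gene with the match in capitals, for Col4a1 (chr8:11312954-11312983, minus strand, 145 bases before its start) and Col4a2 (chr8:11312761-11312790, plus strand, 32 bases before its start).
Col4a1: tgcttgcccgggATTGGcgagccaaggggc
Col4a2: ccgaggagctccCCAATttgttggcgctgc
Both genes were called lower in TLR4 null kidneys after both surgeries.

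Among the fibrillar collagens, Col1a1 and Col3a1 were lower in TLR4 null kidneys after both surgeries, and Col1a2 and Col5a2 after ischemia. Of 8 tested fibrillar chains, 2 were called lower in sham and 4 in ischemic TLR4 null kidneys, and 7 of 8 had a lower mean after each surgery. Of all genes, 0.223% and 0.517% were called lower in sham and ischemic kidneys, and 51.6% and 49% had a lower mean. Col3a1, the chain of collagen III, gave 1482, 1876 and 1214 in wild-type sham and 1544, 1198 and 2319 in wild-type ischemic kidneys. In TLR4 null kidneys it gave 710, 673 and 578 after sham surgery and 522, 309 and 523 after ischemia. All 6 TLR4 null values lay below the lowest wild-type value, and the ischemic TLR4 null kidneys were the lowest group. The difference was -1.19 ± 0.23, adjusted p = 0.0429, or 2.27-fold lower, in sham kidneys and -1.85 ± 0.23, adjusted p = 0.00284, or 3.61-fold lower, in ischemic kidneys.

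Col1a1, the α1 chain of collagen I, read 205, 250.4 and 122 in wild-type sham, 212, 129 and 293 in wild-type ischemic, 26.3, 61.4 and 41.3 in TLR4 null sham and 80.7, 26.5 and 39.8 in TLR4 null ischemic kidneys. The genotypes did not overlap, while sham and ischemic kidneys of a genotype did. It was -1.83 ± 0.35 in sham (adjusted p = 0.0429) and -1.84 ± 0.35 in ischemic kidneys (adjusted p = 0.0343), 3.56-fold lower and 3.59-fold lower. It passed the filter on 6 wild-type and 2 TLR4 null arrays, so it entered the test mainly through the group where it was high. The other 13 genes called in ischemic kidneys passed it on all 12 arrays. A second, dimmer Col1a1 probe set gave -1.60 ± 0.42, adjusted p = 0.188 in sham and -0.70 ± 0.42, adjusted p = 0.611 in ischemic kidneys.

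Col1a2, the α2 chain, gave 1282, 1645 and 1188 in wild-type sham and 1128, 976 and 1603 in wild-type ischemic kidneys. In TLR4 null kidneys it gave 959, 1001 and 873 after sham surgery and 718, 458 and 738 after ischemia. The genotypes separated within each surgery, and the TLR4 null ischemic kidneys were below the TLR4 null sham kidneys without overlap, as 20.1% of all genes were (13.9% were above). The genotype difference was -0.52 ± 0.19, adjusted p = 0.34 in sham and -0.94 ± 0.19, adjusted p = 0.0369 in ischemic kidneys, and ischemia lowered it in TLR4 null kidneys (-0.58 ± 0.19, adjusted p = 0.0392), with -0.17 ± 0.19, adjusted p = 0.601 in wild type. Its second probe set passed in both genotype comparisons when all 30326 probe sets were tested (-0.98 ± 0.17, adjusted p = 0.0261 in sham and -0.97 ± 0.17, adjusted p = 0.0215 in ischemic kidneys), where 0.178% and 0.406% of probe sets were called.

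Col5a2, a chain of collagen V, which sets the width of collagen I fibrils, ran from 419.9 to 669.6 in wild type and from 298 to 411 in TLR4 null kidneys. It was -0.42 ± 0.14, adjusted p = 0.302 in sham and -0.72 ± 0.14, adjusted p = 0.0343 in ischemic kidneys. Col5a1 ran from 183 to 254 and from 111 to 168 in the same order and did not pass (-0.58 ± 0.17, adjusted p = 0.21, and -0.48 ± 0.17, adjusted p = 0.268). Col5a3 (-0.24 ± 0.19 and -0.29 ± 0.19) and Col27a1 (-0.08 ± 0.13 and 0.05 ± 0.13) did not pass either. Col11a2, of cartilage fibrils, was dim at 32.9 to 119 and was the fibrillar chain with a higher mean in sham TLR4 null kidneys (0.49 ± 0.30, adjusted p = 0.699).

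**Figure D3:**
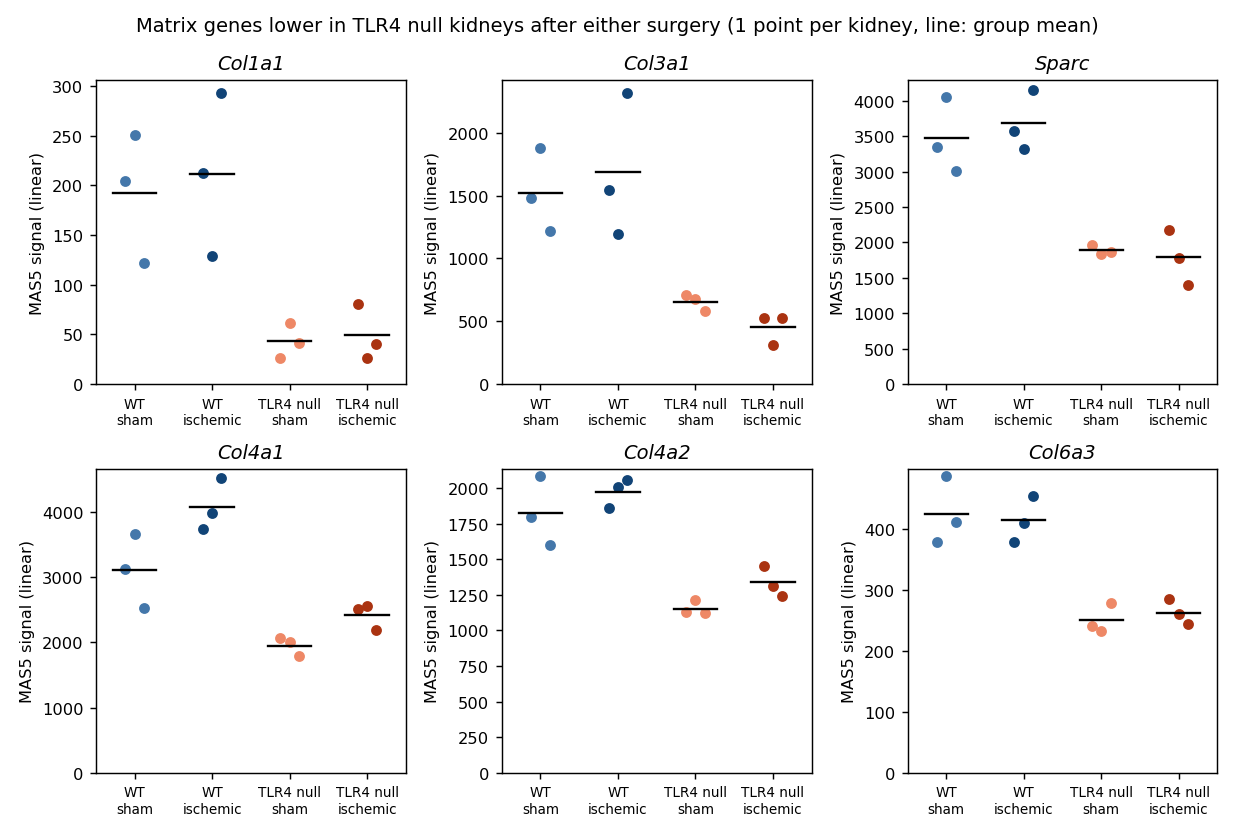
MAS5 signals (vertical axis, linear, from 0) in the 4 groups (horizontal axis) of the 6 matrix genes called in both genotype comparisons, 1 point per kidney with a line at the group mean. In Col1a1, Col3a1, Col4a2, Col6a3 and Sparc all 6 TLR4 null kidneys lie below all 6 wild-type kidneys. In Col4a1 the highest TLR4 null value, 2551, passes the lowest wild-type value, 2529.

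The 6 chains of collagen IV split in their response to ischemia and went the same way between genotypes. Col4a1 had a higher mean after ischemia in both genotypes and was called in wild type, whereas Col4a3 and Col4a4 fell in both. All 6 chains had lower means in TLR4 null kidneys after both surgeries, 2 of 6 called in sham and 3 of 6 in ischemic kidneys. Of all genes, 0.223% and 0.517% were called lower in the same order, and 51.6% and 49% had a lower mean. In sham kidneys all 6 separated between genotypes without overlap, as 8.63% of all genes did in that direction.

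Col4a1 read 3127, 3662 and 2529 in wild-type sham, 3735, 3979.7 and 4524 in wild-type ischemic, 2060.1, 2004 and 1783 in TLR4 null sham and 2512, 2551 and 2185 in TLR4 null ischemic kidneys. Within each surgery the genotypes did not overlap, and within each genotype the ischemic kidneys were above the sham kidneys, as for 15.6% of all genes in wild type (23.7% were below). The genotype difference was -0.65 ± 0.12, adjusted p = 0.0353 in sham and -0.75 ± 0.12, adjusted p = 0.0124 in ischemic kidneys, and the ischemic change was 0.40 ± 0.12, adjusted p = 0.0283 in wild type and 0.31 ± 0.12, adjusted p = 0.0863 in TLR4 null. Its other probe set, at 487 to 827, gave -0.46 ± 0.12, adjusted p = 0.188 in sham and -0.22 ± 0.12, adjusted p = 0.564 in ischemic kidneys between genotypes, and -0.01 ± 0.12, adjusted p = 0.979 after ischemia in wild type.

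Col4a2 read 1800.2, 2089 and 1598 in wild-type sham, 1862, 2009 and 2059 in wild-type ischemic, 1130.3, 1214 and 1119.7 in TLR4 null sham and 1456, 1315 and 1245 in TLR4 null ischemic kidneys. All TLR4 null values lay below all wild-type values. It was -0.65 ± 0.10, adjusted p = 0.0171 in sham and -0.56 ± 0.10, adjusted p = 0.02 in ischemic kidneys, 1.57-fold lower and 1.47-fold lower. Its ischemic changes, 0.12 ± 0.10 in wild type and 0.21 ± 0.10 in TLR4 null, did not pass (adjusted p = 0.458 and 0.156).

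Col4a3 gave 2028, 2168 and 1892 in wild-type sham and 1222, 1419 and 1182 in wild-type ischemic kidneys, and 1443, 1751 and 1602 and 979, 909 and 852 in the matching TLR4 null groups. Every ischemic value was below every sham value, across genotypes, as for 8.98% of all genes. It fell by 0.67 ± 0.10 in wild type (adjusted p = 0.000206) and by 0.80 ± 0.10 in TLR4 null kidneys (adjusted p = 4.23e-05) on the log2 scale, and it was also lower in TLR4 null than in wild-type ischemic kidneys (-0.47 ± 0.10, adjusted p = 0.0432).

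Its partner Col4a4, which is divergently arranged beside Col4a3, gave 2451, 2773 and 2265 in wild-type sham, 1324, 1788 and 1274 in wild-type ischemic, 1693, 2036 and 2041 in TLR4 null sham and 1088, 885 and 1024 in TLR4 null ischemic kidneys. The ischemic change was -0.78 ± 0.13, adjusted p = 0.000569, or 1.71-fold lower, in wild type and -0.93 ± 0.13, adjusted p = 0.000116, or 1.91-fold lower, in TLR4 null. All 3 Col4a4 probe sets and both Col4a3 probe sets were called lower after ischemia in each genotype when all probe sets were tested, where 15.6% and 16.7% of probe sets were called. Between genotypes Col4a4 was at -0.37 ± 0.13, adjusted p = 0.306 in sham and -0.53 ± 0.13, adjusted p = 0.0813 in ischemic kidneys.

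Col4a5 ran from 695 to 986 in wild-type sham, 634 to 751 in wild-type ischemic, 471 to 608 in TLR4 null sham and 432 to 504 in TLR4 null ischemic kidneys. Over the mean of both genotypes it was lower after ischemia (-0.26 ± 0.10, adjusted p = 0.048), a call that held in 3 of 12 leave-one-out fits and 7 of 13 other alternatives, with adjusted p up to 0.196. The genotypes, though not overlapping, did not pass in sham (-0.64 ± 0.14, adjusted p = 0.0614) or ischemic kidneys (-0.51 ± 0.14, adjusted p = 0.11). Col4a6, a chain of Bowman's capsule and some tubules, was dim at 31.9 to 128 and did not pass in any comparison. Podocytes are the makers of the Col4a3, Col4a4 and Col4a5 network in the glomerulus. Of 5 measured podocyte markers, 4 had lower means after ischemia in each genotype, and Podxl was called in TLR4 null kidneys (-0.27 ± 0.09, adjusted p = 0.0446). Synpo went the other way, from 230 to 292.4 in wild-type sham to 308.2 to 382.4 in wild-type ischemic kidneys. In TLR4 null kidneys it went from 183.8 to 277.9 after sham surgery to 295.8 to 323.7 after ischemia. Over the mean of both genotypes 1 of the 5 was called higher and 2 lower, where 13.7% and 19.4% of all genes were. The 5 summed to 1742 to 1925 and 1683 to 1752 in wild-type sham and ischemic kidneys, and to 1609 to 1890 and 1482 to 1641 in TLR4 null. Their part was not tested.

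**Figure D4:**
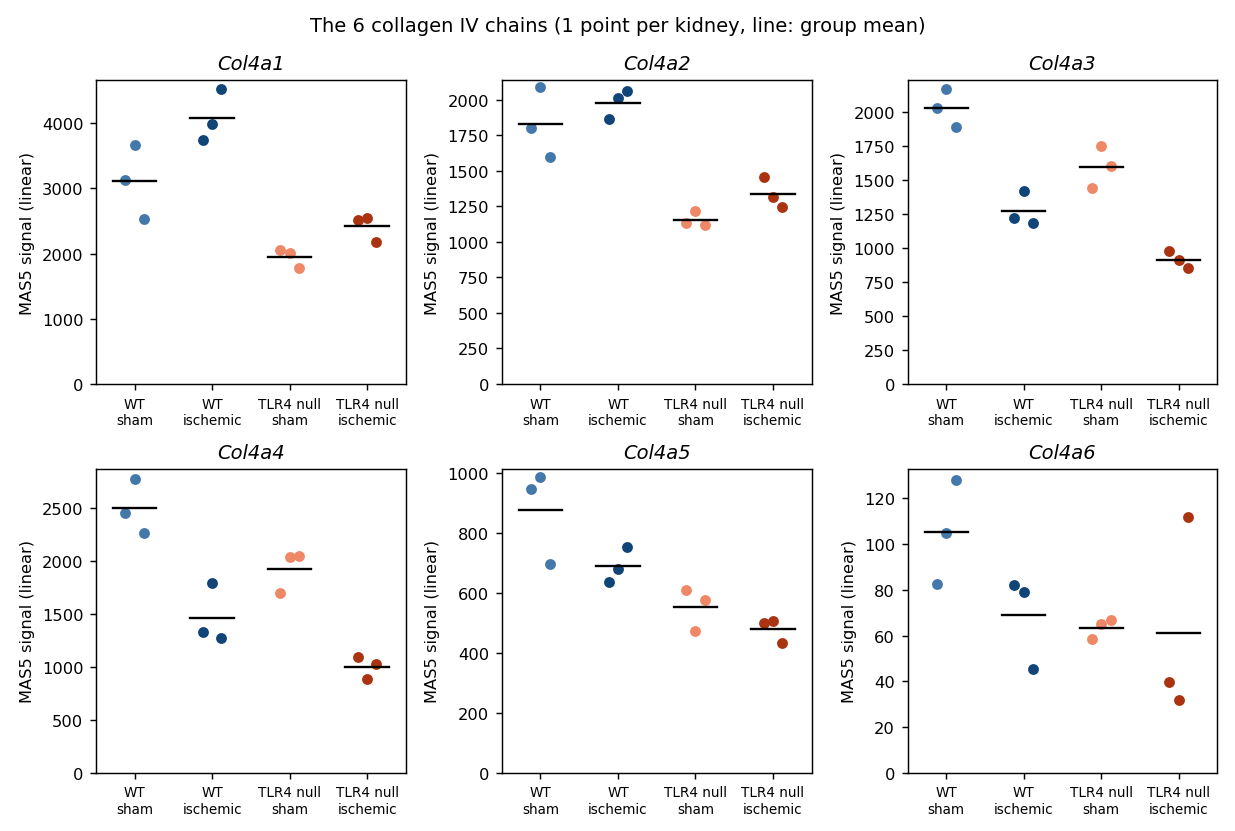
MAS5 signals (vertical axis, linear, from 0) of the 6 collagen IV chains in the 4 groups (horizontal axis), 1 point per kidney with a line at the group mean. Col4a3 and Col4a4 are lower in ischemic than in sham kidneys of both genotypes, Col4a1 is higher, and TLR4 null group means are below the wild-type means of the same surgery in all 6 panels.

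Col18a1, whose product is a basement membrane collagen and the source of endostatin, rose after ischemia in both genotypes. It read 618, 782 and 906 in wild-type sham, 1156, 1077 and 1004 in wild-type ischemic, 660.2, 744 and 494 in TLR4 null sham and 1068, 1031 and 1030 in TLR4 null ischemic kidneys. All 6 ischemic values lay above all 6 sham values, as 8.06% of all genes did. The change was 0.50 ± 0.14, adjusted p = 0.0245 in wild type and 0.73 ± 0.14, adjusted p = 0.0021 in TLR4 null. Its relative Col15a1 did not pass after ischemia (-0.11 ± 0.19, adjusted p = 0.746, and -0.46 ± 0.19, adjusted p = 0.103) or between genotypes in ischemic kidneys (-0.77 ± 0.19, adjusted p = 0.0864), where its ranges of 172 to 199 in wild-type kidneys and 76.4 to 132 in TLR4 null kidneys did not overlap.

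Collagen VI, a beaded filament network next to cells, was lower in TLR4 null kidneys in 2 of its 4 tested chains. The 2 were called in ischemic kidneys, where 0.517% of all genes were called lower. Col6a3 read 379, 486 and 412 in wild-type sham, 379, 409.5 and 455 in wild-type ischemic, 241, 233 and 279 in TLR4 null sham and 284, 260 and 244 in TLR4 null ischemic kidneys. The 6 values of a genotype lay close together whatever the surgery, and the genotypes did not overlap. The difference was -0.72 ± 0.12, adjusted p = 0.0196 in sham and -0.63 ± 0.12, adjusted p = 0.0343 in ischemic kidneys. Col6a2 spanned 299 to 414 over the 6 wild-type arrays and 186 to 253 over the 6 TLR4 null arrays and passed in ischemic kidneys (-0.89 ± 0.14, adjusted p = 0.00949; in sham kidneys -0.59 ± 0.14, adjusted p = 0.102). Its ischemic call was lost where its probe sets were averaged and with the fat covariate (adjusted p up to 0.0628 over all alternatives). Col6a1 was at -0.71 ± 0.22 and -0.81 ± 0.22 (adjusted p = 0.259 and 0.126) without overlap after either surgery, and Col6a4 was dim and did not pass.

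Among collagens that sit on fibril surfaces, Col14a1 and Col12a1 were called. Col14a1 read 594, 510.2 and 458 in wild-type sham, 429, 595 and 594 in wild-type ischemic, 469, 418 and 404 in TLR4 null sham and 337, 303 and 291 in TLR4 null ischemic kidneys, so the TLR4 null ischemic group was below the other 3 groups. It was lower after ischemia in TLR4 null kidneys (-0.45 ± 0.14, adjusted p = 0.0266; in wild type 0.04 ± 0.14, adjusted p = 0.871) and lower in TLR4 null than in wild-type ischemic kidneys (-0.76 ± 0.14, adjusted p = 0.022; in sham kidneys -0.26 ± 0.14, adjusted p = 0.609). A second probe set for it gave -0.26 ± 0.12, adjusted p = 0.479 between genotypes in ischemic kidneys. Col12a1 rose over the mean of both genotypes (0.37 ± 0.12, adjusted p = 0.0282), with values of 136 to 181 in wild-type sham, 177 to 213 in wild-type ischemic, 95.7 to 153 in TLR4 null sham and 147 to 184 in TLR4 null ischemic kidneys. The call held in 5 of 12 leave-one-out fits and was lost where probe sets were averaged (adjusted p up to 0.0933 over all alternatives), and a second probe set gave 0.19 ± 0.18, adjusted p = 0.486. Col16a1, Col19a1, Col20a1, Col22a1 and Col9a1 did not pass in any of the 6 comparisons.

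Of the membrane-spanning collagens, Col13a1 fell after ischemia in both genotypes. It gave 121, 138 and 126 in wild-type sham, 76.1, 53.9 and 80.5 in wild-type ischemic, 134, 106 and 117 in TLR4 null sham and 78.7, 78.3 and 61.3 in TLR4 null ischemic kidneys. No ischemic value reached the lowest sham value of either genotype, as for 8.98% of all genes. The change was -0.76 ± 0.19, adjusted p = 0.00964 in wild type and -0.61 ± 0.19, adjusted p = 0.0316 in TLR4 null kidneys. Col25a1 was dim, at 15.9 to 67.6 on wild-type and 70.2 to 113 on TLR4 null arrays, and although its genotypes did not overlap it did not pass (0.96 ± 0.38, adjusted p = 0.394, and 0.76 ± 0.38, adjusted p = 0.464). Col23a1, and Col7a1, Col26a1 and Col8a1 of other collagen classes, did not pass in any comparison.

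Of the laminins, Lamc1 and Lama5 rose and Lama3 fell after ischemia in both genotypes, and none of the 10 chains was called between genotypes. In each genotype 2 of the 10 rose. In wild type 1 fell, and in TLR4 null kidneys 2 fell. Of all genes, 9.17% rose and 10.5% fell in wild type, and 9.86% rose and 11.7% fell in TLR4 null. Between genotypes 0.314% of all genes were called in sham and 0.656% in ischemic kidneys, so 0 of 10 is near those shares.

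Lamc1, the γ1 chain of nearly all renal laminins, read 241, 284 and 232 in wild-type sham, 374, 283 and 412 in wild-type ischemic, 152, 186 and 186 in TLR4 null sham and 384, 434 and 341 in TLR4 null ischemic kidneys. The TLR4 null sham kidneys were the lowest group, and both ischemic groups overlapped each other. In wild type the groups overlapped at the edge, since the lowest ischemic value was 283.2 and the highest sham value 283.5. The rise was 0.46 ± 0.15, adjusted p = 0.042, or 1.38-fold higher, in wild type and 1.08 ± 0.15, adjusted p = 0.000119, or 2.12-fold higher, in TLR4 null kidneys. Between genotypes it did not pass in sham (-0.50 ± 0.15, adjusted p = 0.234) or ischemic kidneys (0.12 ± 0.15, adjusted p = 0.808).

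Lama5, the α5 chain of the mature glomerular and tubular laminin, gave 391, 411 and 411 in wild-type sham, 566, 563 and 599.7 in wild-type ischemic, 423, 347 and 389 in TLR4 null sham and 569, 555 and 498 in TLR4 null ischemic kidneys. Ischemic values lay above all sham values in both genotypes, as for 8.06% of all genes. It rose by 0.50 ± 0.10 in wild type (adjusted p = 0.00246) and by 0.47 ± 0.10 in TLR4 null (adjusted p = 0.00332), and its genotype differences were -0.07 ± 0.10 and -0.09 ± 0.10. Lamb2, a partner of Lama5 under podocytes, gave 127, 157 and 122 in wild-type sham and 113, 129 and 146 in wild-type ischemic kidneys. In TLR4 null kidneys Lamb2 gave 154, 150.3 and 119 after sham surgery and 91.4, 87.5 and 95.5 after ischemia. It fell in TLR4 null (-0.55 ± 0.17, adjusted p = 0.0281), with -0.06 ± 0.17, adjusted p = 0.856 in wild type.

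Lama3, a chain of the laminin that anchors epithelia, fell after ischemia. It gave 362, 349 and 417 in wild-type sham, 285, 271 and 237 in wild-type ischemic, 468, 479 and 385 in TLR4 null sham and 231, 204 and 298 in TLR4 null ischemic kidneys. Its ischemic values were all below its sham values, as for 8.98% of all genes. The change was -0.49 ± 0.14, adjusted p = 0.0263 in wild type and -0.83 ± 0.14, adjusted p = 0.000681 in TLR4 null kidneys. Lamb3, its partner in that laminin, rose over the mean of both genotypes (0.62 ± 0.20, adjusted p = 0.0257). It was dim, at 43.5 to 60.7 in wild-type sham, 77.5 to 149.8 in wild-type ischemic, 32.9 to 68.1 in TLR4 null sham and 61 to 89.5 in TLR4 null ischemic kidneys. Lama1, of embryonic and tubular laminin, was dim (10.4 to 104) and missed the threshold over both genotypes (0.73 ± 0.27, adjusted p = 0.0507). Lama2, Lama4, Lamb1 and Lamc3 did not pass in any comparison.

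**Figure D5:**
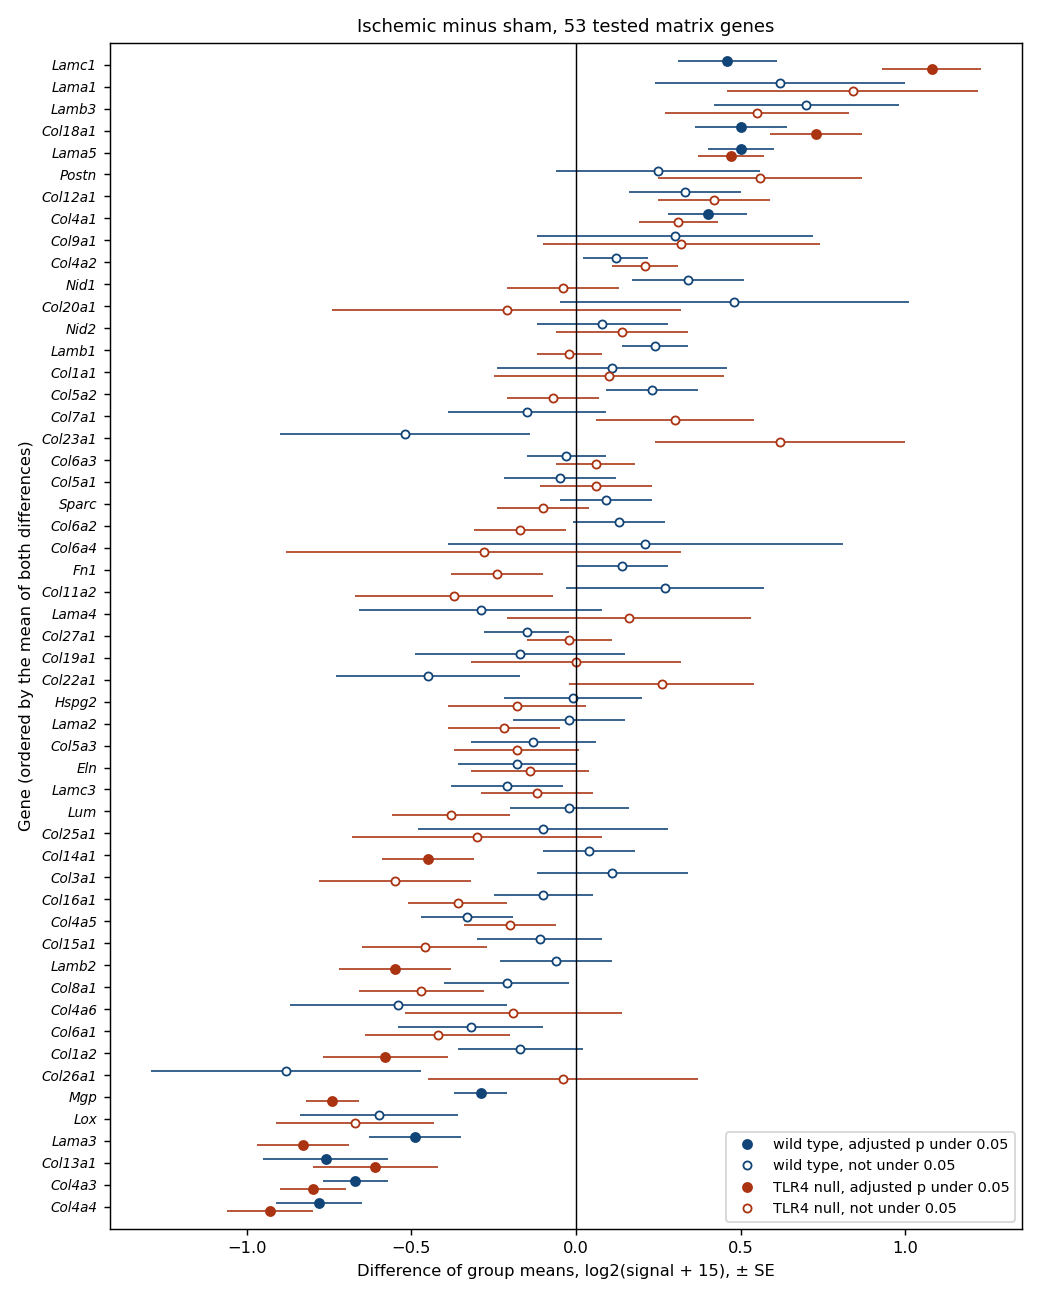
Differences of ischemic minus sham group means on the log2(signal + 15) scale (horizontal axis, bars ± SE) for the 53 tested matrix genes (vertical axis), in wild-type (blue) and TLR4 null (red) kidneys, 3 per group. Filled points had an adjusted p under 0.05: 9 in wild type and 11 in TLR4 null. Lamc1 lies farthest right in TLR4 null at 1.08, and Col4a4 is at -0.78 in wild type and -0.93 in TLR4 null.

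Nidogens link the laminin and collagen IV networks, and 1 of them, Nid1, was called lower in TLR4 null kidneys. Nid1 gave 1004, 1340 and 904 in wild-type sham, 1256, 1202 and 1663 in wild-type ischemic, 722, 676 and 562 in TLR4 null sham and 682, 726 and 507 in TLR4 null ischemic kidneys. All 6 TLR4 null values lay below the lowest wild-type value. It passed in ischemic kidneys (-1.09 ± 0.17, adjusted p = 0.00949, 2.13-fold lower) and not in sham kidneys (-0.70 ± 0.17, adjusted p = 0.113). A second Nid1 probe set gave -1.42 ± 0.49, adjusted p = 0.285 in ischemic kidneys. Nid2 ran from 97.4 to 137 in wild type and from 52.2 to 83.9 in TLR4 null and did not pass (-0.59 ± 0.20, adjusted p = 0.293, and -0.52 ± 0.20, adjusted p = 0.308). Hspg2, perlecan, ran from 459 to 805 and from 461 to 766 and overlapped throughout (0.10 ± 0.21 in sham and -0.08 ± 0.21 in ischemic kidneys).

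Sparc, a collagen-binding matricellular protein, was lower in TLR4 null kidneys after both surgeries and its ischemic changes did not pass. It read 3341, 4058 and 3008 in wild-type sham and 3577, 3325 and 4155 in wild-type ischemic kidneys. In TLR4 null kidneys it read 1962, 1834 and 1867 after sham surgery and 2177, 1784 and 1400.2 after ischemia. The highest TLR4 null value, 2177, was below the lowest wild-type value, 3008. The difference was -0.86 ± 0.14, adjusted p = 0.0182, or 1.82-fold lower, in sham and -1.05 ± 0.14, adjusted p = 0.00475, or 2.08-fold lower, in ischemic kidneys. A second bright probe set gave -1.09 ± 0.15, adjusted p = 0.00988 in sham and -1.05 ± 0.15, adjusted p = 0.0075 in ischemic kidneys, and a dim one, at 18.7 to 83.0, did not pass.

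Mgp, matrix Gla protein, an inhibitor of calcification made by vessel walls, fell after ischemia in both genotypes. It gave 2526, 2608 and 2439.5 in wild-type sham, 2044, 2067 and 2056 in wild-type ischemic, 2087, 2212 and 2237 in TLR4 null sham and 1399.8, 1179 and 1321 in TLR4 null ischemic kidneys. Replicates lay close together and no 2 of the 4 groups overlapped, the nearest being TLR4 null sham, from 2087, and wild-type ischemic, up to 2067. The ischemic change was -0.29 ± 0.08, adjusted p = 0.0148 in wild type and -0.74 ± 0.08, adjusted p = 9.32e-06 in TLR4 null, and the genotype difference -0.21 ± 0.08, adjusted p = 0.353 in sham and -0.66 ± 0.08, adjusted p = 0.00284 in ischemic kidneys. Its wild-type ischemic call held in 11 of 12 leave-one-out fits, while its ischemic call in TLR4 null and its genotype call in ischemic kidneys held without each of the 12 arrays.

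Fn1, fibronectin, which bridges collagen and cells, ran from 519 to 678 in wild-type sham, 581 to 749.5 in wild-type ischemic, 406 to 507 in TLR4 null sham and 310.3 to 421 in TLR4 null ischemic kidneys, with no overlap of genotypes. It passed in ischemic kidneys (-0.74 ± 0.14, adjusted p = 0.0343; in sham kidneys -0.35 ± 0.14, adjusted p = 0.434). Postn, periostin, a matricellular protein of fibroblasts, ran from 126 to 322 in wild type and from 45.5 to 158 in TLR4 null and missed the threshold in sham (-1.37 ± 0.31, adjusted p = 0.0961) and ischemic kidneys (-1.05 ± 0.31, adjusted p = 0.168). Lum, a small proteoglycan on collagen fibrils, overlapped (0.07 ± 0.18 and -0.29 ± 0.18).

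Lox, the enzyme that crosslinks collagen and elastin, fell after ischemia over the mean of both genotypes (-0.63 ± 0.17, adjusted p = 0.0101). It ran from 295 to 369 in wild-type sham, 136 to 309 in wild-type ischemic, 181 to 253 in TLR4 null sham and 102 to 163 in TLR4 null ischemic kidneys, and neither genotype passed alone. Between genotypes it was at -0.56 ± 0.24, adjusted p = 0.479 in sham and -0.63 ± 0.24, adjusted p = 0.32 in ischemic kidneys. Eln, elastin, ran from 169 to 245 in wild type and from 115 to 178 in TLR4 null and did not pass (-0.44 ± 0.18 and -0.40 ± 0.18).

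The test of whether ischemia acted differently in the 2 genotypes called 0 of the 53 matrix genes and 0 of all 14322 genes (0% of genes), with limma. Without adjustment, 3 of the 53 and 913 of all genes had a p under 0.05. The 3 were Mgp (-0.45 ± 0.11, adjusted p = 0.447), Lamc1 (0.62 ± 0.21, adjusted p = 0.651) and Col14a1 (-0.49 ± 0.19, adjusted p = 0.703). A positive value means a more positive ischemic change in TLR4 null kidneys. So the calls made in 1 genotype alone, such as Col4a1 in wild type and Lamb2, Col14a1 and Col1a2 in TLR4 null, were not shown to differ between genotypes. The comparisons of ischemia and of genotype share arrays and are not independent.

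Lists of genes that assemble, bind and cleave the matrix were read against the 19.6% of all genes called after ischemia in wild type and the 21.6% called in TLR4 null kidneys. Among 26 tested enzymes and chaperones of collagen and matrix assembly, 3 rose and 1 fell in each genotype, 15.4% of the list and below the share of all genes (median -0.08 in wild type and -0.09 in TLR4 null, against -0.09 and -0.07 over all genes). Serpinh1, the collagen chaperone HSP47, which is also a heat shock gene, rose by 2.11 ± 0.26 in wild type and 1.55 ± 0.26 in TLR4 null (adjusted p = 3.45e-05 and 0.000487). P4ha1, a prolyl hydroxylase of collagen, rose by 0.57 ± 0.11 and 0.39 ± 0.11. The crosslinker Tgm2 was called in wild type (0.41 ± 0.08, adjusted p = 0.00235) and the lysyl hydroxylase Plod2 in TLR4 null (0.79 ± 0.24, adjusted p = 0.0257), while Colgalt2, a collagen galactosyltransferase, fell (-0.58 ± 0.20 and -0.95 ± 0.20). None of the 26 was called between genotypes, by limma, with 3 and 7 at an unadjusted p under 0.05 in sham and ischemic kidneys.

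Of 23 tested matrix receptors, 8 rose and 0 fell in wild type, and 8 rose and 1 (Itgb5) fell in TLR4 null kidneys, 34.8% and 39.1% of the list against 19.6% and 21.6% of all genes, with medians of 0.30 and 0.27. Itga6, the integrin chain that binds laminin, rose by 1.64 ± 0.11 and 1.77 ± 0.11. Itgb6, an epithelial integrin chain, rose by 1.59 ± 0.14 and 1.84 ± 0.14, the laminin-binding Itga3 by 1.13 ± 0.14 and 1.13 ± 0.14, and the syndecan Sdc4 by 0.75 ± 0.08 and 0.93 ± 0.08, each with an adjusted p of at most 4.24e-05. Between genotypes 1 was called, Itga8, a nephronectin receptor of mesenchymal and mesangial cells, which was lower in TLR4 null ischemic kidneys (-0.78 ± 0.14, adjusted p = 0.0212).

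Of 24 tested matrix proteases and inhibitors, 6 rose and 1 fell in wild type, and 5 rose and 3 fell in TLR4 null kidneys, 29.2% and 33.3% of the list against 19.6% and 21.6% of all genes (medians 0.21 and 0.07). Adamts1, a protease of proteoglycans, rose by 2.52 ± 0.16 and 2.20 ± 0.16, the metalloprotease Mmp10 by 1.85 ± 0.30 and 2.37 ± 0.30, and the inhibitor Timp1 by 1.02 ± 0.19 and 1.16 ± 0.19. In ischemic kidneys Timp2 (-0.71 ± 0.11, adjusted p = 0.0116) and Adamts5 (-0.75 ± 0.15, adjusted p = 0.0362) were lower in TLR4 null. Of 33 matricellular and other interstitial proteins, 6 rose and 4 fell in wild type and 5 rose and 5 fell in TLR4 null, 30.3% of the list in each (medians -0.05 and -0.25). Those that rose furthest were Ccn1 (3.58 ± 0.25 and 3.17 ± 0.25), Thbs1 (2.06 ± 0.14 and 1.69 ± 0.14) and Tnc (2.14 ± 0.24 and 2.15 ± 0.24). Tgfbi, a collagen-binding protein, and Fbln5 were lower in TLR4 null ischemic kidneys (-0.66 ± 0.10, adjusted p = 0.00949 for Tgfbi). Of 15 other basement membrane proteins 20% were called in wild type and 26.7% in TLR4 null kidneys, near the shares of all genes. Tinagl1 rose (0.47 ± 0.15 and 0.80 ± 0.15) and Fras1 fell (-0.67 ± 0.18 and -0.64 ± 0.18), Egflam also fell in wild type and Ntn4 and Frem2 in TLR4 null, and 0 were called between genotypes by limma, with 3 at an unadjusted p under 0.05 in each surgery. Means were lower in TLR4 null sham and ischemic kidneys for 78.8% and 87.9% of the matricellular list. The shares were 75% and 79.2% for proteases and inhibitors and 86.7% and 80% for other basement membrane proteins. They were 60.9% and 65.2% for receptors and 57.7% in each for assembly enzymes. The 53 matrix genes had 77.4% and 79.2%, and all genes 51.6% and 49%.

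The 9 genes that did not pass the filter were Col10a1, Col11a1, Col17a1, Col24a1, Col2a1, Col6a5, Col8a2, Col9a2 and Col9a3, with no signal above 54.3 on any array. These include chains of cartilage and of cornea and skin. A further 14 of the 53 tested genes passed it on some arrays and not others, and of these Col1a1 and Lamb3 were called in any comparison. The 39 genes above it on all 12 arrays held 5 of the 6 sham and 13 of the 14 ischemic genotype calls.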

How the data were processed

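Whole-kidney RNA was hybridised to 12 Affymetrix arrays, 3 in each of 4 groups. Per the submitters' processing notes the authors used MAS5, with a version not given in the sources used here, and the deposited values are linear intensity signals, 1 per probe set. Their trimmed mean was 250 on every array. No detection calls or scan dates were used here, and the number of arrays limits the precision. Signals were taken as deposited, log2(signal + 15) was computed, and probe sets above the 40th percentile on at least 3 arrays were kept. Each gene was represented by its brightest probe set. Gene symbols came from the platform annotation, updated through gene identifiers. limma 3.58.1 in R 4.3.3 fitted the 4 groups together (lmFit, then eBayes with a trend), with Benjamini-Hochberg adjustment over 14322 genes in each of 6 comparisons and a threshold of 0.05. Fold values are on the log2(signal + 15) scale and understate changes of dim genes. Sample titles call the 3 kidneys of a group biological replicates.

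The matrix genes, the gene and marker lists and the tests were chosen with earlier results of these data known. Named were every matrix gene called in any comparison, a fixed set of collagen IV, laminin, nidogen and interstitial genes, the 3 with the smallest p in the interaction and genotype comparisons, and up to 4 called genes of each list. The fit was tested on simulated signals in which 200 genes were changed. Alternatives were quantile and median scaling, pseudocounts of 1 and 60, no filter and a 60th percentile filter, averaging the probe sets of a gene, dropping those suffixed _x_at or _s_at, testing all probe sets, a prior variance with no trend, weighting arrays, fitting only the groups compared, a replicate block, a fat covariate, and leaving out each array. Upstream sequences were RefSeq's (GRCm38.p6), read in Python 3.11.15 with pandas 2.3.3. Plots were drawn with matplotlib 3.10.9.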

Additional observations from a re-analysis of the deposited data

How the results depend on the processing

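With 3 kidneys a group, counts of called genes near the threshold moved while directions did not: of 54 called results for single genes, 23 were kept in every alternative and 0 were reversed. Among the 14 genes lower in ischemic TLR4 null kidneys, Col3a1 and Mgp kept the call under every alternative and without each array, whereas none of the 6 sham calls did. Median scaling gave 5 matrix genes after ischemia in wild type, 7 in TLR4 null and 2 between genotypes in sham kidneys. Without a filter 3 were called between genotypes in sham and 8 in ischemic kidneys, and with the fat covariate 3 and 3. eBayes without a trend gave 0 and 4. Array weights gave 12 in sham kidneys. In ischemic kidneys averaging the probe sets of a gene gave 9, fitting the 2 groups alone 6, and the fit with the replicate number as a block 9. Leaving out each array gave 5 to 9 after ischemia in wild type, 8 to 12 in TLR4 null, 10 to 14 over both, 0 to 7 between genotypes in sham kidneys and 3 to 13 in ischemic kidneys. The interaction stayed at 0 in all of these fits. The causes of these shifts were not tested, and each leave-one-out fit also holds fewer arrays.

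Same-numbered arrays of different groups did not deviate together (r -0.0624 to 0.104, against -0.129 to 0.143 for other numbers), and 5 of 12 arrays correlated best with their own number, so the numbers were not taken as a pairing.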
